A study of Homo sapiens with 4 samples.

Results

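Genes of the Notch pathway were followed in AMG510-resistant and untreated MIA-PaCa2 cells: the receptor genes NOTCH1, NOTCH2 and NOTCH3, the Jagged ligand genes JAG1 and JAG2, and the target genes HES1, HES4, HEY1, HEY2 and NRARP. The 10 genes were chosen by symbol, with earlier results of these data known. Each matched 1 of the 57773 Ensembl gene IDs listed for every library. MIA-PaCa2 is a human pancreatic cancer cell line, and AMG510 (sotorasib) is a covalent small-molecule cancer drug. The resistant group held 2 libraries, from populations kept in rising AMG510 over 2 months until they grew at 5 µM, and the untreated group held 2 libraries from populations without the drug. The treatment tag of resistant replicate 2 names AMG511, whereas its title names AMG510, and it was kept in the resistant group. Each library is taken as 1 population. Nothing in the labels says whether the drug was present at harvest or whether a population came from 1 clone. Whether and how separately the populations were kept is not given either, so p-values measure only the spread between these libraries.

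Notch receptors are cut at the membrane after a ligand on a neighbouring cell pulls on them. An ADAM protease and then gamma-secretase release the intracellular domain, which enters the nucleus, joins the DNA-binding protein RBPJ and a Mastermind co-activator, and turns on HES and HEY genes, whose products are transcriptional repressors. In the pancreas the pathway is known for holding progenitor cells back from differentiation, and it is active again in many pancreatic tumours.

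In the resistant libraries the ligand gene JAG1 was about 10.1-fold lower than in the untreated ones, while the receptor genes NOTCH2 and NOTCH3 were higher. In RNA from whole populations, fewer cells that express a gene and less RNA per cell cannot be told apart. The target genes did not move one way. HES4 was 3.10-fold higher and HEY2 was present in the resistant libraries and almost absent from the untreated ones, whereas NRARP was 1.94-fold lower and HES1 did not pass the test. Of the 10 genes 9 had enough counts for a test, and 6 of these were called at an adjusted p below 0.05, 4 higher and 2 lower (edgeR's quasi-likelihood test with Benjamini-Hochberg adjustment over all tested genes). HEY2 had enough counts only through the resistant libraries. With a filter of at least 1 CPM in 2 libraries it was not tested, and 5 of 8 were called, 3 higher and 2 lower. Of all genes, 5201 of 13923 tested were called with that filter. With the main filter, 34.0% of all 16090 tested genes were called, 16.6% higher and 17.4% lower. In 6 of the 9, HEY2 among them, the values of the resistant and untreated libraries did not overlap, beside 70.9% of all tested genes. The median log2 fold change of the 9, HEY2 again included, was 0.50, and that of all tested genes −0.01.

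Expected counts summed to 30146559 and 33074965 in resistant replicates 1 and 2, and to 38052558 and 35747414 in untreated replicates 1 and 2. Levels are CPM, counts scaled to library size with TMM factors, and 3 counts, the most that a count of 0 allows, corresponded to 0.0801 to 0.104 CPM. These floors and the counting intervals below cover counting error only. Of the 7 epithelial and ductal markers KRT8, KRT18, KRT19 and SOX9 were abundant, and KRT8 and KRT18 were called lower. KRT8 was at 962 and 1245 CPM in resistant and 3091 and 2076 CPM in untreated libraries. KRT8 and KRT18 share 525 exon bases on opposite strands, so their levels are uncertain with an unknown strand setting. KRT7 had 5 to 15 counts, and EPCAM and CDH1 stayed at or below 2.09 CPM in all 4. Endothelial cells also use these Notch genes. The 5 endothelial markers with an ID summed to 5.87 and 1.07 CPM in resistant and 9.40 and 4.84 CPM in untreated libraries. Most of this was CDH5, at 5.28 and 0.711 CPM in resistant and 8.12 and 3.87 CPM in untreated libraries, and not called. TEK and KDR were at 0 to 2 counts. EMCN was called lower, with 0 and 1 counts in resistant and 35 and 22 in untreated libraries. It had enough counts for a test only through the untreated libraries, so its call is not given as support. The 5 immune markers used summed to 35.4 and 11.2 CPM in resistant and 16.4 and 19.9 CPM in untreated libraries. CD68 made up most of this, at 33.7 and 9.39 CPM in resistant and 10.3 and 13.7 CPM in untreated libraries, and was not called. Its level is uncertain, because it shares 1789 exon bases with AC016876.2 on the same strand. NKG7 was at 0, CD3E at 0 to 1 count, and CD14 was called lower. The 6 fibroblast and pericyte markers summed to 126.5 and 102.9 CPM in resistant and 994 and 595 CPM in untreated libraries, nearly all of it RGS5, which was called lower. PDGFRB was called higher, at 5.07 and 2.16 CPM in resistant and 0.0542 and 0.187 CPM in untreated libraries. PDGFRB had enough counts for a test only through the resistant libraries, so its call is not given as support. DCN had 2 counts in every library. Whether these differences have a part in those of the Notch genes was not tested.

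RBPJ binds the letters GTGGGAA, with TGGGAA as the core, and such sites are known in HES and HEY promoters. Promoter sequences from RefSeq (build GRCh38.p14, another build than the one the counts were made on) matched 9 of the 10 genes by symbol, and none is shown for HEY1. The 4 below are those of the targets whose results differ, so that their letters can be set beside the values. Each is 120 bases long, read 5′ to 3′ on the gene's strand, with matches to GTGGGAA or TGGGAA on either strand in capitals. Since TGGGAA lies inside GTGGGAA, every match to the longer motif is also one to the shorter. The stretches end at the base before the transcription start, except that of HEY2, which lies between 233 and 114 bases before it.
HES1, chr3:194136028-194136147, plus strand: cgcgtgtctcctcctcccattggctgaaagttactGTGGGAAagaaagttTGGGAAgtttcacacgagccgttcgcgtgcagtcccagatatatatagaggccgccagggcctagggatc
HES4, chr1:1000098-1000217, minus strand: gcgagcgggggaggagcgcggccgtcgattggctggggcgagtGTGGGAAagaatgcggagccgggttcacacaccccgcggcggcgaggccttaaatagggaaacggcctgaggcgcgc
HEY2, chr6:125749399-125749518, plus strand: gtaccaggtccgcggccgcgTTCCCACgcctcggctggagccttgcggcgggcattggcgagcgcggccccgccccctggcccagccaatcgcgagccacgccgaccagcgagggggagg
NRARP, chr9:137302272-137302391, minus strand: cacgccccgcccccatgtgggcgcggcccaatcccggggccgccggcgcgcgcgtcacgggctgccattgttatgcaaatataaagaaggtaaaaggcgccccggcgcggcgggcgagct

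HES1, HES4 and HEY2 each held 1 match to GTGGGAA in the 250 bases before the start, and HES1 held a further TGGGAA. The match began 85 bases before the start in HES1, 77 bases before it in HES4 and 213 bases before it in HEY2, where it lay on the opposite strand as TTCCCAC. No match to either motif was in that window of NRARP, NOTCH1, NOTCH2, NOTCH3, JAG1 or JAG2. Among all 35116 RefSeq promoters, 5.43% held GTGGGAA and 20.8% held TGGGAA in the same window, on either strand. A match is a run of letters and not a shown binding site.

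**Figure D1:**
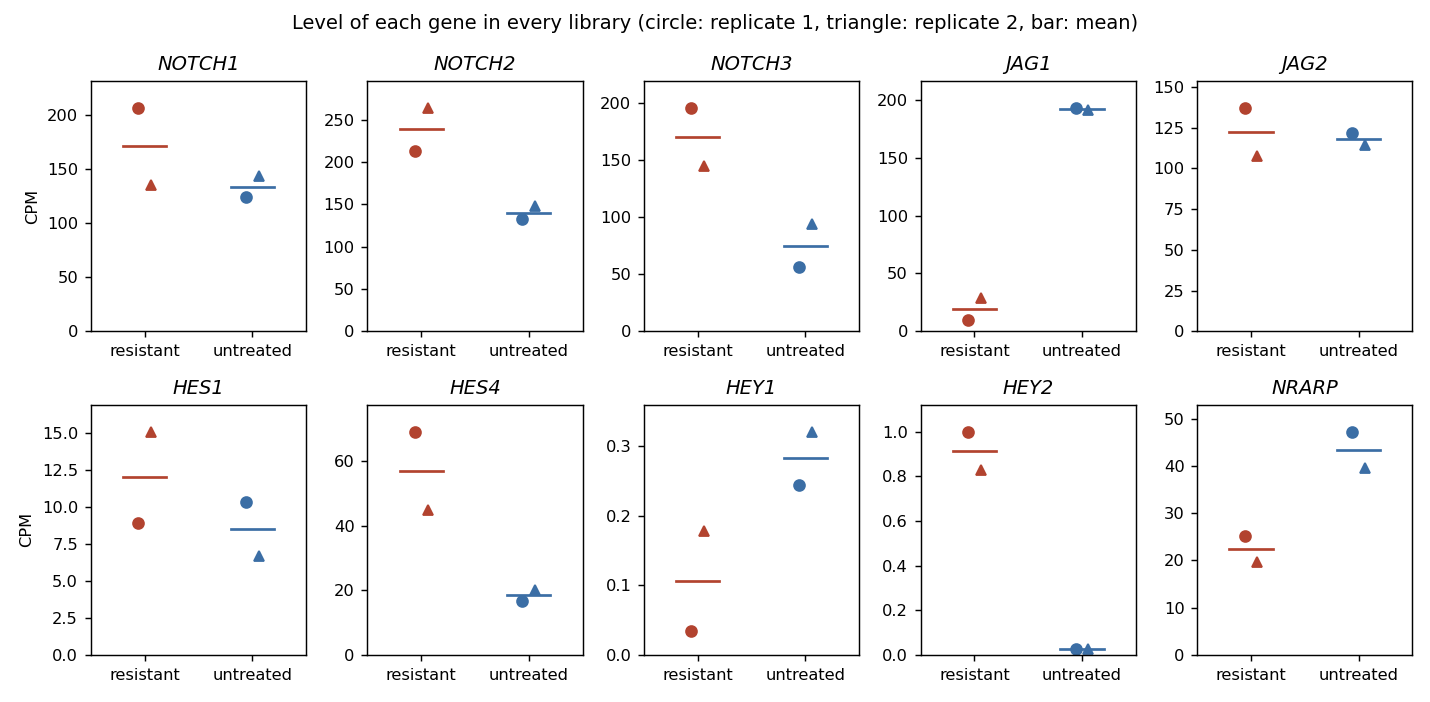
Level of the 10 genes in CPM (counts scaled to library size, linear axes from 0, a different range in each panel) in the 2 resistant and the 2 untreated libraries; circles are replicate 1, triangles replicate 2, and bars the mean of each pair. JAG1 lies at 9.69 and 28.6 CPM in resistant and at 193 and 192 CPM in untreated libraries, and the groups overlap for NOTCH1, JAG2 and HES1.

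NOTCH1 (ENSG00000148400, chromosome 9), the receptor most studied in tumours, had 207 and 136 CPM in resistant replicates 1 and 2, against 124 and 144 CPM in untreated replicates 1 and 2. Only resistant replicate 1 stood above the untreated pair, so the groups overlapped. The log2 fold change was 0.35 (SE 0.21) and did not pass (adjusted p = 0.216). With resistant replicate 1 left out it was 0.04, and with resistant replicate 2 left out it was 0.63 and passed (adjusted p = 0.0293). NOTCH2 (ENSG00000134250, chromosome 1) had 213 and 264 CPM in resistant libraries, against 132 and 148 CPM in untreated ones. Both resistant values lay above both untreated values, and the gene rose by 0.77 in log2 (SE 0.17, adjusted p = 0.00712). Partial copies of NOTCH2 are known in the human genome, and its deposited counts were not whole numbers (6170.12 in resistant replicate 1), so reads may have been shared out between genes, and its level is uncertain to that extent.

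NOTCH3 (ENSG00000074181, chromosome 19), a receptor known best from vascular smooth muscle, showed the largest log2 fold change of the 3 receptor genes. Its level was 196 and 145 CPM in resistant libraries, against 55.9 and 94.2 CPM in untreated ones. The groups did not overlap, though the untreated libraries differed 1.69-fold from each other. NOTCH3 rose by 1.18 in log2 (SE 0.26, adjusted p = 0.00992), and by 0.88 to 1.60 with any 1 library left out, each time past the threshold. NOTCH2 likewise stayed past it in all 4 such fits, at an adjusted p of up to 0.0486. Whether NOTCH1, NOTCH2 and NOTCH3 differed from each other in their change was not tested.

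Per kilobase of principal transcript, which allows genes of unequal length to be set side by side, the 3 receptors summed to 63.5 and 54.5 CPM per kb in resistant libraries, against 31.4 and 39.3 CPM per kb in untreated ones. In the resistant libraries the receptor levels overlapped, at 14.6 to 22.2 CPM per kb for NOTCH1, 18.7 to 23.2 for NOTCH2 and 16.7 to 22.6 for NOTCH3. In the untreated libraries they stood in order, NOTCH1 at 13.4 to 15.4 CPM per kb, NOTCH2 at 11.61 to 12.99 and NOTCH3 at 6.45 to 10.9. The share of NOTCH3 in this sum was 35.6% and 30.7% in resistant libraries, against 20.5% and 27.7% in untreated ones.

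JAG1 (ENSG00000101384, chromosome 20) encodes a membrane ligand that activates Notch receptors on adjacent cells. Its deposited counts, like those of NOTCH2, were not all whole (967.36 in resistant replicate 2), so the same limit holds for JAG1. Its level fell to 9.69 and 28.6 CPM in resistant replicates 1 and 2, against 193 and 192 CPM in untreated replicates 1 and 2. The untreated libraries were nearly equal, and the higher resistant library was still 6.70-fold below the lower untreated one. The means were 19.2 ± 13.4 CPM in resistant and 193 ± 1.22 CPM in untreated libraries (SD, n = 2 each), and the log2 fold change was −3.32 (SE 0.56, adjusted p = 0.0143). It was −2.73 with resistant replicate 1 left out and −4.31 with resistant replicate 2 left out, both called. With only 1 untreated library left the spread came from the resistant pair alone, and the call ended, at an adjusted p = 0.273 without untreated replicate 1 and 0.247 without untreated replicate 2, with log2 fold changes of −3.30 and −3.34.

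JAG2 (ENSG00000184916, chromosome 14), the second Jagged ligand, had 137 and 108 CPM in resistant libraries, against 122 and 115 CPM in untreated ones. Its groups overlapped and it did not pass (log2 fold change 0.05, SE 0.17, adjusted p = 0.845). Per kilobase, JAG1 made up 6.5% and 20.7% of the Jagged ligand pair in resistant libraries, against 60.9% and 62.2% in untreated ones. JAG1 thus stood at 1.63 to 4.82 CPM per kb beside 18.5 to 23.5 for JAG2 in resistant libraries, and at 32.3 to 32.6 beside 19.6 to 20.9 in untreated ones, so the order of the ligands differed between the groups.

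HES1 (ENSG00000114315, chromosome 3), the repressor most often used as a readout of Notch activity, had 8.90 and 15.1 CPM in resistant replicates 1 and 2, against 10.3 and 6.71 CPM in untreated replicates 1 and 2. Replicates of each group were about as far apart as the groups, at 1.70-fold in the resistant and 1.54-fold in the untreated pair. HES1 did not pass (log2 fold change 0.50, SE 0.32, adjusted p = 0.262), and the estimate dropped to 0.06 with resistant replicate 2 left out. With resistant replicate 1 left out HES1 passed at 0.84 (adjusted p = 0.0469).

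HES4 (ENSG00000188290, chromosome 1), a related repressor gene that rodents lack, had 69.1 and 44.8 CPM in resistant libraries, against 16.7 and 20.1 CPM in untreated ones. The lower resistant library was 2.23-fold above the higher untreated one. HES4 rose by 1.63 in log2 (SE 0.23, adjusted p = 0.000687) and was called with any 1 library left out. HEY2 (ENSG00000135547, chromosome 6), a repressor known from the heart and arteries, had 29 and 28 counts in the resistant libraries, against 1 and 1 in the untreated ones. These counts corresponded to 1.0005 and 0.829 CPM in resistant libraries, against 0.0271 and 0.0267 CPM in untreated ones, under the level of 3 counts. The ratio of resistant to untreated was 33.8 with a 95% counting interval of 8.93 to 286. HEY2 had enough counts for a test only through the resistant libraries, where it was high, so its adjusted p is not given as support, and it stayed low beside HES4 there.

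NRARP (ENSG00000198435, chromosome 9), a target whose product binds the intracellular domain of Notch and promotes its loss, had 25.1 and 19.6 CPM in resistant libraries, against 47.3 and 39.5 CPM in untreated ones. The groups did not overlap, and NRARP fell by 0.96 in log2 (SE 0.20, adjusted p = 0.00449), a call kept with any 1 library left out (adjusted p up to 0.0379). HEY1 (ENSG00000164683, chromosome 8), the relative of HEY2, had 1 and 6 counts in resistant libraries, against 9 and 12 in untreated ones, too few for a test. Its ratio of resistant to untreated was 0.395, with a 95% counting interval of 0.142 to 0.964. Fitted without the filter on low counts it had an adjusted p = 0.383.

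Per kilobase the targets spread over a wide range of levels. In resistant libraries HES4 stood highest at 49.8 to 76.8 CPM per kb, followed by NRARP at 11.1 to 14.2, HES1 at 5.64 to 9.57, HEY2 at 0.310 to 0.374 and HEY1 at 0.0150 to 0.0775, with no overlap between neighbours in that order. In untreated libraries NRARP, at 22.32 to 26.7 CPM per kb, and HES4, at 18.5 to 22.35, overlapped at the top. HES1 followed at 4.25 to 6.54 CPM per kb, with HEY1 at 0.106 to 0.140 and HEY2 at 0.00998 to 0.0101. Levels of HEY1 and HEY2 in untreated libraries, and of HEY1 in resistant ones, rest on 1 to 12 counts a library.

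**Figure D2:**
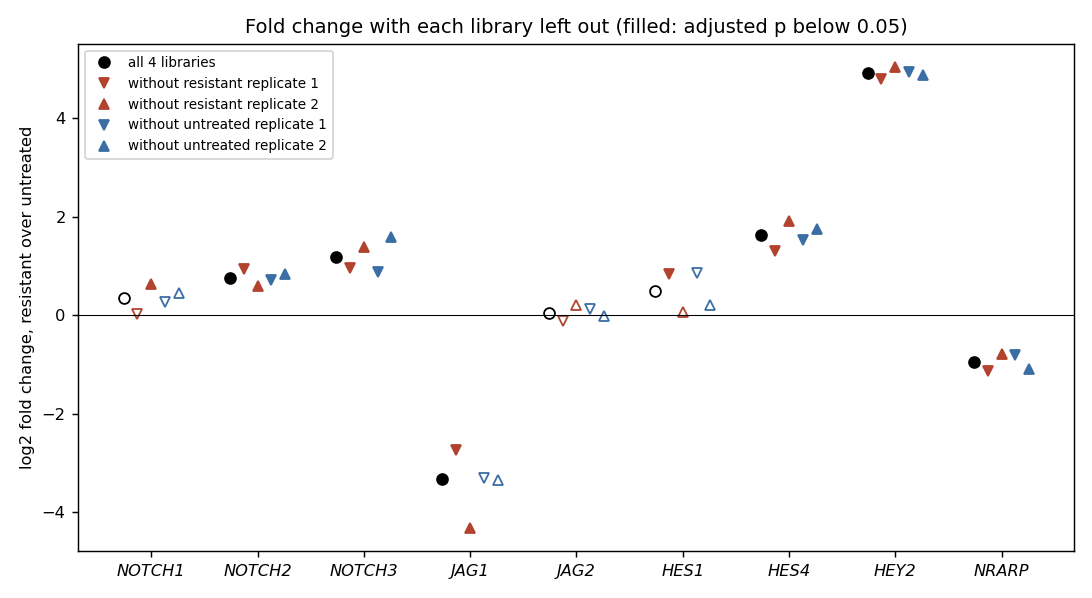
Log2 fold change of resistant over untreated libraries for the 9 tested genes, fitted on all 4 libraries (black) and with each library left out in turn; filled symbols passed an adjusted p below 0.05. NOTCH2, NOTCH3, HES4 and NRARP stay filled throughout. HEY2 does too, but it had enough counts for a test only through the resistant libraries, so this is not support. JAG1 stays below 0 but is open without either untreated library, and NOTCH1, JAG2 and HES1 lie near 0 in at least 1 fit.

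The resistant populations were also set against each other, which has 1 library a side and so no test. Of the 9 tested genes, 3 were at least 1.5-fold apart between resistant replicates 1 and 2 and less than that apart between the untreated libraries, beside 11.3% of all 16090 tested genes. This rule counts gaps of the resistant pair only. Of all tested genes 19.7% were at least 1.5-fold apart in the resistant pair and 19.2% in the untreated pair. NOTCH3 went the other way, at 1.35-fold in the resistant and 1.69-fold in the untreated pair. JAG1 in resistant replicate 1 was 0.339 of that in resistant replicate 2 (95% counting interval 0.295 to 0.387), while the untreated libraries had a ratio of 1.01 (0.976 to 1.04). NOTCH1 had a ratio of 1.52 between the resistant libraries (1.47 to 1.58) and 0.867 between the untreated ones (0.833 to 0.902). For HES4 the ratio was 1.54 in the resistant (1.44 to 1.65) and 0.829 in the untreated pair (0.744 to 0.923). Resistant replicate 1 had the higher NOTCH1, NOTCH3, JAG2, HES4, HEY2 and NRARP, and resistant replicate 2 the higher NOTCH2, JAG1 and HES1. The gaps of NOTCH2, JAG2, HEY2 and NRARP were small, at 1.21- to 1.28-fold. For HEY2 the ratio of 1.21 had a 95% counting interval of 0.693 to 2.11.

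**Figure D3:**
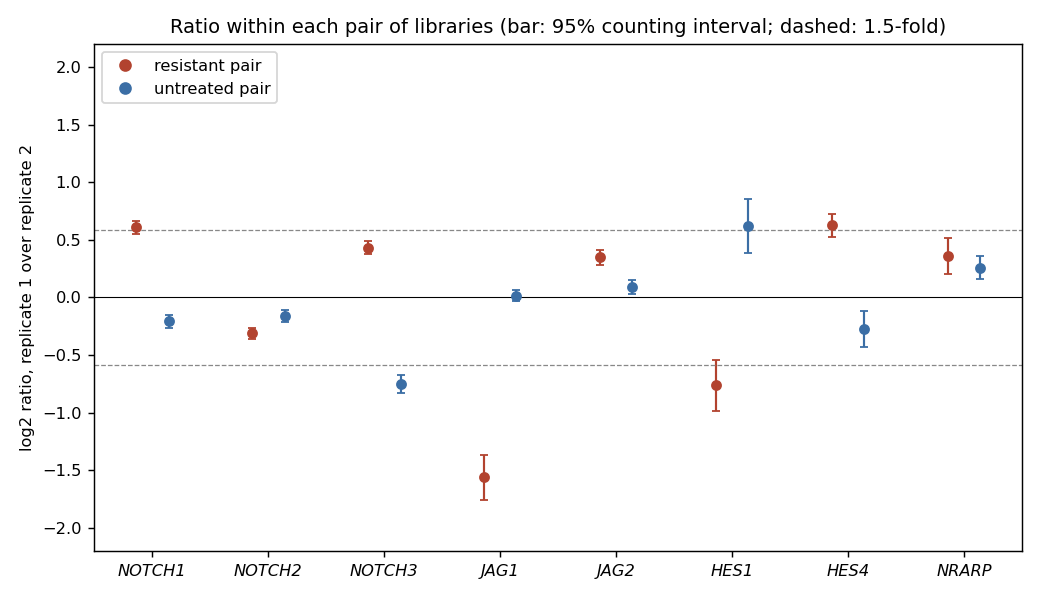
Log2 ratio of replicate 1 to replicate 2 within the resistant pair (left point of each gene) and the untreated pair (right point); bars are 95% counting intervals and dashed lines mark 1.5-fold. The resistant pair differs most for JAG1, at a ratio of 0.339, while the untreated pair differs most for NOTCH3, at 0.593; HEY1 and HEY2 are not drawn because their counts were too low.

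The other pathway genes were 50 in 7 lists. Of 45 with enough counts, 11 were higher, 6 were lower and 28 were not called (37.8% called, beside 34.0% of all tested genes), a share near that of all genes, and their median log2 fold change was 0.08. Without untreated replicate 1, 5 were higher and 1 lower of 46 tested, and among all genes 2832 of 16793 tested were called in that fit. With any 1 library left out, every called gene of these lists kept the direction of its log2 fold change. Not every call held in these fits, as given gene by gene below. In the fit on all 4 libraries 16.6% of all tested genes were higher and 17.4% lower. No list below was tested against these shares.

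Among other receptors and ligands, NOTCH4 fell to 2.45 and 2.19 CPM in resistant libraries, against 7.55 and 5.77 CPM in untreated ones (−1.52 in log2, SE 0.34, adjusted p = 0.00671). Leaving out untreated replicate 1 ended the call of NOTCH4 (adjusted p = 0.0595), and its exons overlap those of GPSM3. DLL1, a Delta-like ligand, had 12.4 and 7.14 CPM in resistant libraries, against 3.11 and 6.46 CPM in untreated ones, and did not pass (log2 fold change 1.02, adjusted p = 0.0778). It passed without untreated replicate 2 (1.64, adjusted p = 0.0126) or resistant replicate 2 (1.37, adjusted p = 0.0133), with DESeq2 or with no filter. DLK2, a Delta-like homologue, had a log2 fold change of −0.17 (adjusted p = 0.715), which was above 0 without resistant replicate 2. DLL4, a ligand typical of endothelium, had 2 counts in each resistant library and 3 and 6 in the untreated ones.

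Of the 8 genes for receptor processing 4 were higher, 0 lower and 4 not called (50% called, beside 34.0% of all tested genes). ADAM17, a protease that sheds the receptor's outer part, had 140 and 107 CPM in resistant libraries, against 50.8 and 61.6 CPM in untreated ones (log2 fold change 1.13, SE 0.18, adjusted p = 0.00134). It shares exon sequence with IAH1, an expressed gene on the opposite strand with 41.3 and 37.5 CPM in resistant and 19.7 and 20.5 CPM in untreated libraries, so its value is uncertain with an unknown strand setting. ADAM10, the sheddase that usually acts after ligand binding, had 279 and 280.0 CPM in resistant libraries, against 284.4 and 283.7 CPM in untreated ones (log2 fold change −0.02, SE 0.16, adjusted p = 0.924). The direction of ADAM10 turned with upper-quartile scaling, a stricter filter or untreated replicate 1 left out.

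Of the gamma-secretase subunits, PSEN2, a catalytic one, had 34.2 and 22.5 CPM in resistant libraries, against 17.8 and 15.1 CPM in untreated ones. The groups did not overlap, and PSEN2 rose by 0.78 in log2 (SE 0.24, adjusted p = 0.0259), NCSTN, the subunit that receives the substrate, by 0.47 (adjusted p = 0.0394) and APH1B, a scaffold, by 0.89 (adjusted p = 0.0253). These calls were not firm. Without untreated replicate 1 the adjusted p was 0.0521 for PSEN2, 0.195 for NCSTN and 0.154 for APH1B. Without untreated replicate 2 it was 0.110 for PSEN2 and 0.0683 for NCSTN, without resistant replicate 1 it was 0.234 for PSEN2 and 0.0934 for NCSTN, and without resistant replicate 2 it was 0.125 for NCSTN. NCSTN also shares exon sequence with COPA on the opposite strand. APH1A, the other scaffold, was not called (−0.24, adjusted p = 0.288).

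Of 5 glycosylation genes, whose enzymes add sugars that tune ligand choice, 1 was higher, 1 lower and 3 not called. The share called was 40%, beside 34.0% of all tested genes. RFNG, a Fringe enzyme, had 109 and 80.1 CPM in resistant libraries, against 43.0 and 51.0 CPM in untreated ones (log2 fold change 1.01, SE 0.19, adjusted p = 0.00274). Its exons overlap GPS1 on the opposite strand, which makes it uncertain. POGLUT1, which adds glucose, fell by 0.86 in log2 (SE 0.26, adjusted p = 0.0271). Leaving out untreated replicate 1, untreated replicate 2 or resistant replicate 1 ended the call of POGLUT1 (adjusted p = 0.105, 0.0761 and 0.130). LFNG, another Fringe enzyme, had 5.93 and 4.03 CPM in resistant libraries, against 8.37 and 9.43 CPM in untreated ones, without overlap, but missed the threshold (−0.84, SE 0.31, adjusted p = 0.0550). LFNG passed without resistant replicate 1 (−1.13, adjusted p = 0.0259), with no filter, DESeq2, limma-voom or edgeR's newer form (adjusted p down to 0.0371). POFUT1, which adds the fucose that Fringe extends, was not called (0.14, adjusted p = 0.522).

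In the nucleus, RBPJ itself had 34.0 and 39.1 CPM in resistant libraries, against 52.5 and 52.7 CPM in untreated ones. It fell by 0.52 in log2 (SE 0.17, adjusted p = 0.0319), and leaving out untreated replicate 1, untreated replicate 2 or resistant replicate 1 ended this call (adjusted p = 0.134, 0.0833 and 0.205). KAT2B, a histone acetyltransferase that joins the complex, had 30.3 and 39.6 CPM in resistant libraries, against 11.4 and 14.7 CPM in untreated ones (log2 fold change 1.42, SE 0.22, adjusted p = 0.00113). EP300, an acetyltransferase recruited by Mastermind, was not called (0.43, adjusted p = 0.0644) but passed with a stricter filter (adjusted p = 0.0467). SNW1 was not called (0.05, adjusted p = 0.830), and its estimate turned below 0 when either replicate 2 was left out. These were 1 higher, 1 lower and 5 not called of 7 (28.6% called, beside 34.0% of all tested genes).

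Of 5 co-repressor genes, whose products act with RBPJ when Notch is off, 0 were higher, 2 lower and 3 not called. The share called was 40%, beside 34.0% of all tested genes. HDAC1, a histone deacetylase with many partners, had 123 and 141 CPM in resistant libraries, against 286 and 273 CPM in untreated ones, and it fell by 1.08 in log2 (SE 0.16, adjusted p = 0.000956). CTBP2, which binds repressor complexes, fell by 0.60 (SE 0.15, adjusted p = 0.0122), which missed the threshold once untreated replicate 1 was dropped (adjusted p = 0.0971). CTBP2 is uncertain because of a long exon overlap with ZRANB1 on the opposite strand. SPEN, a co-repressor that binds RBPJ, had 112.6 and 111.3 CPM in resistant libraries, against 122.9 and 114.5 CPM in untreated ones, and was not called (−0.08, SE 0.15, adjusted p = 0.705). CTBP1 was not called either (0.17, adjusted p = 0.455).

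Of the 13 ubiquitin ligases and endocytic regulators 11 were tested, of which 4 were higher, 0 lower and 7 not called. The share called was 36.4%, beside 34.0% of all tested genes. NUMBL, a relative of the Notch inhibitor NUMB, had 116 and 77.2 CPM in resistant libraries, against 35.2 and 33.0 CPM in untreated ones (log2 fold change 1.503, SE 0.20, adjusted p = 0.000583). NUMB rose by 0.56 (SE 0.15, adjusted p = 0.0175). It missed the threshold once untreated replicate 1, untreated replicate 2 or resistant replicate 2 was dropped (adjusted p = 0.0600, 0.0745 and 0.0748). MIB1, the ligase that drives ligand endocytosis, had 173 and 174 CPM in resistant libraries, against 111 and 116 CPM in untreated ones (log2 fold change 0.61, SE 0.15, adjusted p = 0.0119, and 0.0677 without untreated replicate 1). DTX3L, a Deltex family ligase, rose by 1.33 (SE 0.22, adjusted p = 0.00163). It shares exon sequence with its opposite-strand neighbour PARP9, which had 23.6 and 42.3 CPM in resistant and 11.4 and 13.5 CPM in untreated libraries. ITCH, a ligase of Notch receptors, did not pass (−0.01, adjusted p = 0.951), with a direction that turned under upper-quartile scaling, a stricter filter or without resistant replicate 1. NEURL1B was not called (0.26, adjusted p = 0.238).

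The remaining family genes gave 1 higher, 1 lower and 2 not called of 4 tested (50% called, beside 34.0% of all tested genes). HES3 and HES5 had at most 1 count. HES2 had 14.3 and 12.5 CPM in resistant libraries, against 3.57 and 6.999 CPM in untreated ones (log2 fold change 1.34, SE 0.33, adjusted p = 0.0115, and 0.0600 without untreated replicate 1). HES6, which is known to oppose HES1, had 21.3 and 17.0 CPM in resistant libraries, against 29.4 and 28.9 CPM in untreated ones. It fell by 0.61 (SE 0.20, adjusted p = 0.0360), but missed the threshold once untreated replicate 1, untreated replicate 2 or resistant replicate 2 was dropped (adjusted p = 0.148, 0.0797 and 0.170). HES7 had 3.73 and 3.52 CPM in resistant libraries, against 2.46 and 3.87 CPM in untreated ones, and HEYL had 2.24 and 2.66 CPM in resistant libraries, against 2.06 and 3.58 CPM in untreated ones. Both overlapped between the groups and were not called (0.19, adjusted p = 0.723, and −0.20, adjusted p = 0.742). The log2 fold change of HES7 was below 0 without untreated replicate 1 and that of HEYL above 0 without untreated replicate 2.

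**Figure D4:**
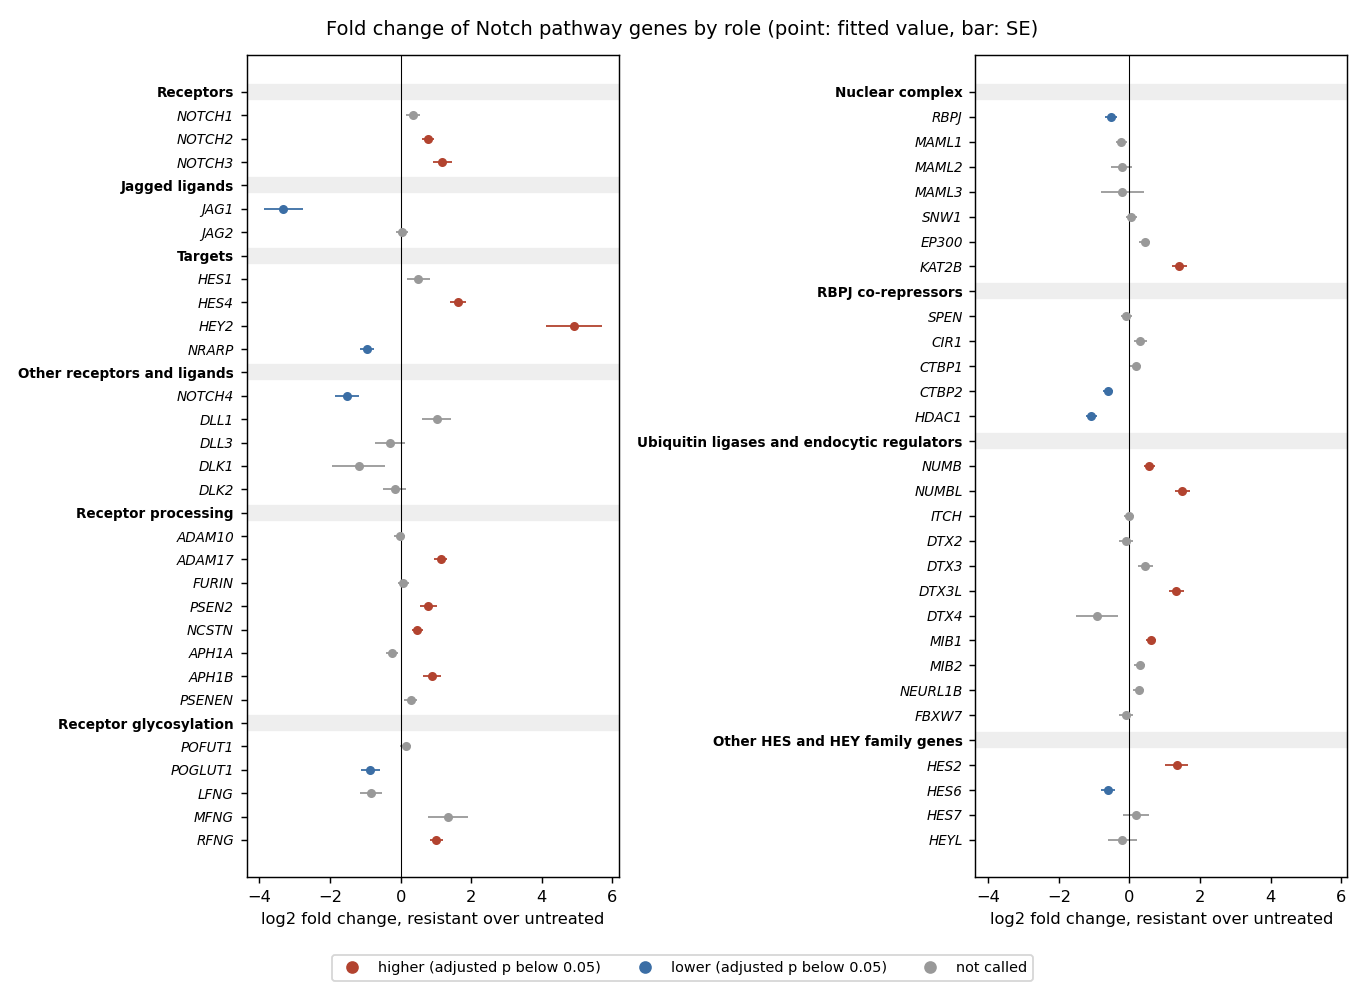
Fitted log2 fold change of resistant over untreated libraries (points) with its SE (bars) for the tested Notch pathway genes, grouped by role; red genes were called higher, blue ones lower and grey ones not called. The widest spread is among the Jagged ligands and targets, between −3.32 for JAG1 and 4.91 for HEY2, a fitted value that rests on 1 count in each untreated library.

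Genes beside the members were looked at after their values had been seen, in the gene order of GENCODE 29. HES4 lies next to ISG15, an interferon-stimulated gene, which had 80.3 and 107 CPM in resistant libraries, against 20.4 and 32.9 CPM in untreated ones (log2 fold change 1.81, SE 0.25, adjusted p = 0.00107). In the resistant pair HES4 was higher in replicate 1 and ISG15 in replicate 2, whereas in the untreated pair both were higher in replicate 2. Of the 10 tested protein-coding genes nearest to HES4, 5 on each side, 5 were higher and 1 was lower. Around HEY2, 6 of 10 were higher and 2 lower, among them its direct neighbours HDDC2 (1.05, adjusted p = 0.00116) and NCOA7 (1.04, adjusted p = 0.00185), both higher. Around JAG1, 0 of 10 were higher and 4 lower, with a median log2 fold change of −0.56, whereas its nearest tested neighbours SLX4IP (−0.80, adjusted p = 0.276) and BTBD3 (0.07, adjusted p = 0.773) were not called. Around NOTCH2, 1 was higher and 2 lower, around NOTCH3, 0 were higher and 1 lower, and around NRARP, 1 was higher and 1 lower, with medians of 0.33, 0.03 and 0.13. Around NOTCH1, 3 were higher and 1 lower, around JAG2, 2 and 1, around HES1, 3 and 1, and around HEY1, 1 and 3. Among all tested genes 16.6% were higher and 17.4% lower, and no neighbourhood was tested against that share. The part of these neighbourhoods in the members' values was not tested.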

How the data were processed

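Polyadenylated RNA was sequenced in 2 resistant and 2 untreated libraries. The deposited values are expected counts per Ensembl gene, per the file headers, not scaled to library size. Per the submitters' processing notes, STAR 2.7.2b and RSEM 1.3.1 were used, with the build GRCh37; their roles, the annotation release and the strand setting are not given in the sources used here. Of all values 93.63% were whole, and expected counts were rounded. Symbols came from the gene name table. Chromosomes, principal transcript lengths, exon overlaps and gene order came from GENCODE 29 (GRCh38).

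Genes were kept with filterByExpr (minimum count 10) and scaled with TMM. The test was the quasi-likelihood one of edgeR 4.0.16 in R 4.3.3, with robust dispersion estimates. The SE is the log2 fold change divided by the square root of F. Counting intervals are exact conditional binomial ones (95%). Alternatives used other scalings, filters, a replicate block, left-out libraries, DESeq2 1.42.0, the newer form of edgeR's test, and voom from limma 3.58.1. Replicates differed by more than counting noise (median chi-square per gene 5.78 in the resistant and 6.71 in the untreated pair, against 0.455 from counting alone). Such values cannot tell separate populations from repeat preparations of 1 population. All 4 libraries were counted separately. The members and lists were chosen with earlier results of these data known. All members were named, with every called gene of the other lists and up to 2 uncalled ones per list with the highest mean CPM, and markers near 0 counts or highest in their list. DLL4, HES3, HES5, the other called markers and the overlapping and neighbouring genes were named after their values were seen. A few genes of these lists are not reported here and enter no list count.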

Additional observations from a re-analysis of the deposited data

How the results depend on the processing

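The number of genes called, 5463 of all tested, lay between 2832 and 5041 with 1 library left out, was 2832 at an adjusted p below 0.01, and was 5275 with the replicate number as a block. Replicate numbers do not pair the libraries by any label, and same-numbered deviations had a correlation of −0.032. The block changed no call among the members and the other pathway genes named; markers and neighbouring genes were not refitted under the alternatives. The members called numbered 6, and between 5 and 7 in all alternatives. The other pathway genes called numbered 17, between 6 and 16 with 1 library left out and 7 at the stricter threshold. The 3 members apart between the resistant populations became 4 with upper-quartile scaling, a setting chosen after seeing the data.

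Among the members and the other pathway genes named, directions turned only for genes that were not called. With 1 library left out, log2 fold changes lay between −0.12 and 0.21 for JAG2, −0.53 and 0.13 for DLK2, −0.059 and 0.18 for SNW1, −0.073 and 0.545 for HES7 and −0.52 and 0.24 for HEYL. ADAM10 was at 0.002 with upper-quartile scaling, 0.008 with at least 1 CPM in 2 libraries, and −0.036 to 0.001 with 1 library left out. ITCH was at 0.011, 0.017, and −0.051 to 0.036. Under the alternative that needed 1 CPM in 2 libraries HEY2 was not tested. Depth limits HEY1 and HEY2, with at most 29 counts a library.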
